A study of Mus musculus with 7 samples.

Results

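Immunoglobulin and B cell transcripts were measured by RNA sequencing in mouse kidney. The 8 genes described were Igkc, Ighm, Igha, Jchain, Cd79a, Cd79b, Ms4a1 and Mzb1. They were taken by gene symbol from the deposited table of 17537 genes, and all 8 were listed. The table held 7 libraries from C57BL/6 mice, all entered at an age of 8 to 10 weeks. Nondiabetic controls (C) gave 3 libraries, numbered 2, 8 and 9. Diabetic mice without treatment (DM-22) gave 2 libraries. Diabetic mice treated with an inhibitor of sodium/glucose cotransporter 2 (DM+SGLT2i) gave the other 2. In the mice of both diabetic groups, streptozotocin, a toxin of insulin-producing beta cells, had been injected into the peritoneum at 60 mg/kg body weight daily for 5 days. The treated mice received Dapagliflozin at 25 mg/kg in their drinking water from week 16 for 6 weeks, and the study ended at week 22. The question behind the comparison was which expression changes of diabetes persist once blood glucose is lowered.

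B cells display immunoglobulin on their surface, where the proteins encoded by Cd79a and Cd79b carry the signal into the cell. Plasma cells are their descendants and secrete immunoglobulin, which makes the transcripts of its constant regions very abundant in each cell. Igkc encodes the constant region of the kappa light chain, and Ighm and Igha those of the heavy chains of IgM and IgA. Jchain encodes the joining chain that links IgA and IgM into polymers, the form that epithelial cells can transport into secretions. In a healthy kidney both cell types are sparse. In a bulk sample, fewer cells of a type and less RNA per cell cannot be told apart.

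The libraries held between 46456125 and 56541594 reads on listed genes, and 1 read corresponded to 0.0180 to 0.0231 CPM, the unit of reads per 1000000 reads. Kidney identity was clear in every library, with Slc34a1, the phosphate transporter of the proximal tubule, between 2841 and 9452 CPM. DM+SGLT2i replicate 1 stood apart through fat cell transcripts, 1090 CPM summed over 6 genes against 34.1 to 79.8 CPM in the other libraries. C replicate 2 stood apart through macrophage transcripts, 820 CPM summed over 13 genes against 200 to 479 CPM in the others. The labels do not say how the tissue pieces were cut, and give no batch. They also do not name the mouse behind each library, so p-values measure the spread between these samples.

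The immunoglobulin transcripts were the abundant members, and Igha and Jchain differed more than 2-fold between libraries within each group. Igha was 50.3, 105 and 554 CPM in C replicates 2, 8 and 9. In DM-22 it was 19.1 and 180 CPM, and in DM+SGLT2i 27.4 and 88.3 CPM. The highest and the lowest library thus differed 29.0-fold, the highest being a control and the lowest an untreated diabetic library, and all 3 groups overlapped. The means were 237 ± 276 CPM in C (SD, n = 3), 99.4 ± 114 CPM in DM-22 (SD, n = 2) and 57.9 ± 43.1 CPM in DM+SGLT2i (SD, n = 2). The control mean rested on replicate 9, and without it the mean of the other 2 controls was 77.8 CPM.

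Igkc ran in much the same order. It was 56.8, 37.8 and 193 CPM in C, 21.6 and 142 CPM in DM-22, and 44.9 and 65.1 CPM in DM+SGLT2i. C replicate 9 and DM-22 replicate 2 were again the high libraries and DM-22 replicate 1 the low one. Jchain was 21.8, 20.9 and 120 CPM in C, 8.84 and 56.7 CPM in DM-22, and 14.1 and 30.2 CPM in DM+SGLT2i. Its extremes were the same as those of Igha, with a 13.6-fold range, and its groups overlapped.

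Ighm departed from this order. It was 46.3, 9.47 and 11.8 CPM in C, 9.58 and 10.9 CPM in DM-22, and 46.4 and 13.0 CPM in DM+SGLT2i. C replicate 2 and DM+SGLT2i replicate 1 stood at almost the same high level, and the other 5 libraries lay between 9.47 and 13.0 CPM. The Ighm means of 22.5 ± 20.6 CPM in C (SD, n = 3) and 29.7 ± 23.6 CPM in DM+SGLT2i (SD, n = 2) were each set by 1 library. The remaining controls averaged 10.6 CPM, next to 10.2 ± 0.931 CPM in DM-22 (SD, n = 2).

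The transcripts of the B cell itself were near the lower limit of measurement. Cd79a was 0.531, 1.12 and 2.54 CPM in C, 1.04 and 1.66 CPM in DM-22, and 0.509 and 0.488 CPM in DM+SGLT2i. Both treated libraries lay below the lowest control, C replicate 2, by a small margin. These levels came from 26 to 119 reads, and for the 26 reads of DM+SGLT2i replicate 1 the exact Poisson 95% interval was 0.332 to 0.746 CPM, which includes the level of C replicate 2. Such intervals cover counting error only.

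Cd79b, the partner of Cd79a in the receptor, was 1.14, 0.842 and 1.11 CPM in C, 1.82 and 1.34 CPM in DM-22, and 0.646 and 1.10 CPM in DM+SGLT2i. Both DM-22 libraries were above every other library. The Poisson interval of the 58 reads in DM-22 replicate 2 was 1.02 to 1.73 CPM, which includes the levels of C replicates 2 and 9. Ms4a1, which encodes the surface antigen CD20 of mature B cells, was 0.238, 0.674 and 0.385 CPM in C, 0.720 and 0.786 CPM in DM-22, and 0.157 and 0.307 CPM in DM+SGLT2i. Here too the DM-22 libraries were the 2 highest. Ms4a1 rested on 8 to 40 reads a library, and the interval of the 8 reads in DM+SGLT2i replicate 1 was 0.0676 to 0.308 CPM. For the 40 reads in DM-22 replicate 1 it was 0.514 to 0.980 CPM, which includes the level of C replicate 8. Mzb1, a chaperone of the endoplasmic reticulum that aids immunoglobulin assembly in plasma cells and some B cells, was 0.770, 0.926 and 2.22 CPM in C, 0.900 and 1.48 CPM in DM-22, and 1.57 and 0.849 CPM in DM+SGLT2i. Its groups overlapped. Mzb1 lies at chr18:35647267-35649367, on the minus strand. C replicate 9 was the highest library for 5 of the 8 genes, namely Igkc, Igha, Jchain, Cd79a and Mzb1.

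**Figure D1:**
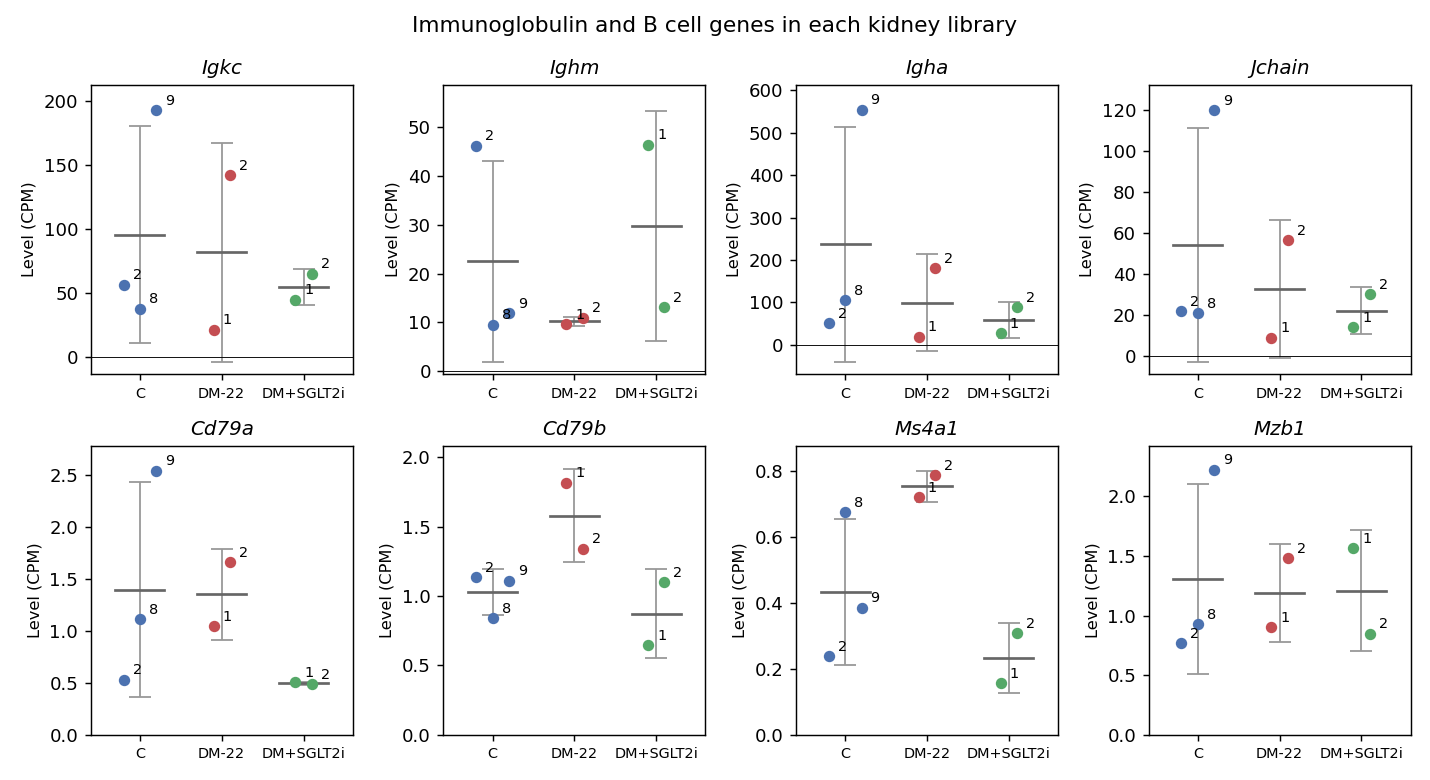
Level of each gene in CPM (vertical axes, starting at or below 0) in the libraries of C, DM-22 and DM+SGLT2i. Numbered points are replicates, horizontal lines group means and bars the SD. The SD bars of Igha and Jchain in C and DM-22 reach below 0, C replicate 9 is the top point for 5 genes, and Ighm is near 46 CPM in C replicate 2 and DM+SGLT2i replicate 1 alone.

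Levels of different genes are comparable only per length of transcript. Per kb of exon, the mean over all 7 libraries was 151 CPM for Igkc, 54.8 CPM for Igha, 15.5 CPM for Jchain and 11.2 CPM for Ighm. On the same scale Mzb1 averaged 1.02 CPM, Cd79b 0.798 CPM, Cd79a 0.774 CPM and Ms4a1 0.0754 CPM. On this scale the first 4 genes were above the other 4 in every library. Igkc was the highest and Ms4a1 the lowest in every library. Some genes between them changed places, as Igha and Ighm did in C replicate 2, where Ighm was 24.5 and Igha 18.8 CPM per kb. The order of genes that changed places is not beyond the spread.

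Positions are those of build GRCm38, which is mm10, in the GENCODE M21 annotation. Igkc occupies chr6:70726435-70726966 on the plus strand, at the end of the kappa locus. Igha lies at chr12:113254830-113260236 and Ighm at chr12:113418558-113422730, both on the minus strand of the heavy chain locus. Jchain is at chr5:88519809-88527891 (minus), Cd79a at chr7:24897381-24902197 (plus), Cd79b at chr11:106311341-106314762 (minus) and Ms4a1 at chr19:11249675-11266241 (minus).

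Promoter sequences from RefSeq (GRCm38.p6, from 250 bases before to 50 bases after the RefSeq start of the gene) were at hand for 2 of the 8 genes, Jchain and Cd79a. For Cd79a the GENCODE M21 start, chr7:24897381, lies upstream of that start, so much of its window is inside the gene in that annotation. The sequences are shown since these genes stand for the secreting and the receptor side of the set. Capitals mark the E box CAGGTG, a motif of E proteins, and the PU box GAGGAA, a motif of the factor PU.1, on either strand. No motif overlapped another.
Jchain, chr5:88527848-88528147, minus strand: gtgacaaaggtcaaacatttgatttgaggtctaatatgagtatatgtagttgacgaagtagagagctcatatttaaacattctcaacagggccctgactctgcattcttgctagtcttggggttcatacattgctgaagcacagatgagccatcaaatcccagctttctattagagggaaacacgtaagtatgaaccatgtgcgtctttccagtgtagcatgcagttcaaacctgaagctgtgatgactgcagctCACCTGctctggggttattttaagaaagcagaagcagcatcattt
Cd79a, chr7:24897247-24897546, plus strand: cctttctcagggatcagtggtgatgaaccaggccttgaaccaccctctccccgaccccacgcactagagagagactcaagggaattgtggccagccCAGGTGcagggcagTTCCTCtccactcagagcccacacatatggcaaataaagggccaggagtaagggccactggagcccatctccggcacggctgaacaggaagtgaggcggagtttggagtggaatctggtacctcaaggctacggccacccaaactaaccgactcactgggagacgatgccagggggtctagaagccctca
The Jchain window held 1 E box on the reverse strand, just past the start. The Cd79a window held 1 E box and, on the reverse strand, 1 PU box. Of all 32851 RefSeq promoters of this length, 20.2% held this E box and 28.3% this PU box. The octamer ATGCAAAT, bound by Oct factors, was in neither window and in 1.74% of all promoters.

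Among the heavy chains, the share taken by each class differed widely between libraries. Shares were computed from CPM per kb over Igha, Ighm, Ighd and the 4 IgG genes Ighg1, Ighg2b, Ighg2c and Ighg3. The length was that of all annotated exons of a gene, from 1326 bases for Ighg2c to 2678 bases for Ighg2b. The shares therefore depend on the annotation. Igha made up 34.6%, 81.6% and 94.8% in C, 45.7% and 88.7% in DM-22, and 18.1% and 60.0% in DM+SGLT2i. Ighm made up 45.04%, 10.4% and 2.86% in C, 32.5% and 7.60% in DM-22, and 43.5% and 12.5% in DM+SGLT2i. The 3 libraries with the lowest Igha shares, C replicate 2, DM-22 replicate 1 and DM+SGLT2i replicate 1, came from 3 different groups. The IgG genes together made up 19.9%, 6.67% and 2.00% in C, 17.9% and 3.21% in DM-22, and 37.8% and 27.0% in DM+SGLT2i, so both treated libraries were above the other 5. Ighd did not exceed 3.94%.

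**Figure D2:**
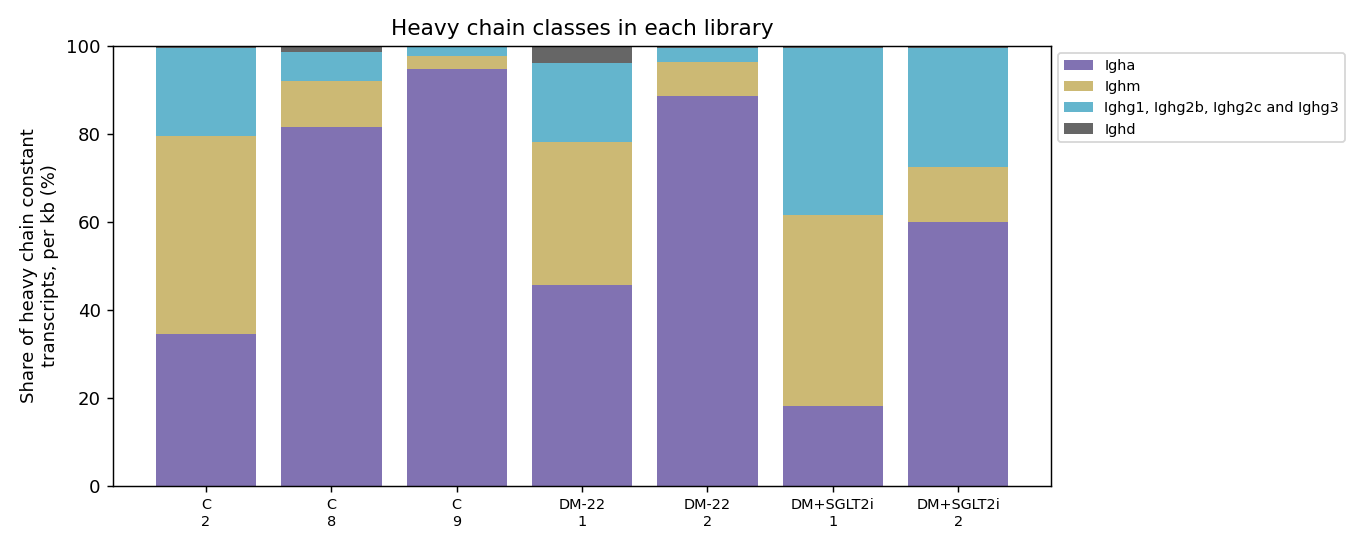
Share of each heavy chain class in the 7 libraries (vertical axis, percent of CPM per kb summed over Igha, Ighm, Ighd and 4 IgG genes). Igha takes from 18.1% to 94.8% of a bar, and the IgG part is widest in the DM+SGLT2i libraries, at 37.8% and 27.0%.

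The ratio of kappa to heavy chain transcript lay within 1.47 and 3.52. It depends on the same annotated lengths, with 532 bases for Igkc. Igkc per kb was 1.96, 1.47 and 1.66 times the heavy chain sum in C, 2.59 and 3.52 times in DM-22, and 1.49 and 2.22 times in DM+SGLT2i. Of the lambda constant genes searched, Iglc2 was the only one listed, and it made up 0.792% to 2.36% of Iglc2 and Igkc together per kb. This share covers Iglc2 alone and not the lambda chain as a whole.

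Variable segments, the parts that recombination joins to a constant region, were listed for 80 Igkv, 80 Ighv and 3 Iglv genes. Igkv segments summed to 53.7, 37.9 and 206 CPM in C, 19.4 and 99.6 CPM in DM-22, and 37.7 and 66.6 CPM in DM+SGLT2i, which is 0.699 to 1.07 times the Igkc level of the same library. Ighv segments summed to 21.7, 26.6 and 150 CPM in C, 6.62 and 33.0 CPM in DM-22, and 23.8 and 26.3 CPM in DM+SGLT2i. Iglv segments summed to 1.24 to 14.0 CPM, and made up 2.92% to 10.1% of Iglv and Igkv together. Of the 163 segments, 126 had their highest value in C replicate 9. The sums hold many segments, between 69 and 80 Igkv genes with at least 1 read in each library.

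The leading kappa segment was Igkv1-110 in C replicate 9 and in both DM-22 libraries, with 13.6%, 13.1% and 13.0% of all Igkv reads. It was Igkv1-117 in both DM+SGLT2i libraries, with 10.1% and 17.5%. In C replicate 2 it was Igkv6-15, with 17.0% (Wilson 95% interval 15.7% to 18.4%), and in C replicate 8 Igkv10-96, with 9.05%. By mean level the first 5 kappa segments were Igkv1-110 (8.91 CPM), Igkv1-117 (7.22 CPM), Igkv10-96 (2.64 CPM), Igkv6-15 (2.63 CPM) and Igkv6-17 (1.95 CPM). Igkv6-15 was 9.13 CPM in C replicate 2 and at most 4.27 CPM elsewhere.

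The 2 leading kappa segments are close copies, and reads between them may be split by the counting. They lie at chr6:68270485-68271267 (Igkv1-110) and chr6:68121046-68121827 (Igkv1-117), both on the plus strand of GRCm38, and were identical at 96.4% of the last 250 bases of their GENCODE M21 transcripts. Their last 90 bases are shown with the 4 differing bases in capitals.
Igkv1-110: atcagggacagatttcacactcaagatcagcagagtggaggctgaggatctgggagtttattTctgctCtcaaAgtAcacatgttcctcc
Igkv1-117: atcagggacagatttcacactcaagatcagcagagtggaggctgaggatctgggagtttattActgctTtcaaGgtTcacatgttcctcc
In the stretch shown the 2 segments differ only near the end, so few of its bases tell their reads apart. Igkv6-15 and Igkv10-96 were 94.4% and 93.6% identical to their nearest listed neighbours, Igkv6-23 and Igkv10-94.

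For the heavy chain, Ighv1-81 led in C replicate 9 (6.38% of Ighv reads), in DM-22 (7.88% and 6.80%) and in DM+SGLT2i replicate 2 (15.7%). Ighv2-9-1 led in C replicate 2 with 12.9%, Ighv6-3 in C replicate 8 with 5.93% and Ighv1-22 in DM+SGLT2i replicate 1 with 6.50%. By mean level Ighv1-81 came first at 2.68 CPM, followed by Ighv1-26, Ighv6-3, Ighv1-72 and Ighv1-53. Iglv1 took 67.0% to 90.1% of the Iglv reads in each library.

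Igkc, Igha and Jchain ran together across libraries. Over the 7 libraries and on the scale log2(CPM + 0.5), Igkc and Jchain had Pearson's r = 0.97 (exact permutation p = 0.000992, adjusted p = 0.0139 over 28 pairs) and Spearman's rho = 0.96 (exact permutation p = 0.00278, adjusted p = 0.0778). Without the 2 libraries farthest from the Igkc median, C replicate 9 and DM-22 replicate 1, r was 0.92. Igha and Jchain had r = 0.97 (exact permutation p = 0.000794, adjusted p = 0.0139) and rho = 0.89 (exact permutation p = 0.0123, adjusted p = 0.172), with r = 0.88 after the same libraries were left out. Igkc and Igha had r = 0.89 (exact permutation p = 0.00893, adjusted p = 0.0625), falling to 0.63 without them. A pair of values in a library shares its RNA and its depth. In Pearson's r, 3 of the 28 pairs were under 0.05 after adjustment, and the third, a negative one, was Ighm with Ms4a1. The libraries fell into separate clusters for Ighm, and with 5 libraries in the larger one the relation could not be tested within it, so no pooled r is given. The rank correlations gave no pair under 0.05. Among the receptor and surface genes, r was 0.31 for Cd79a and Cd79b (rho = 0.36), 0.57 for Cd79a and Ms4a1 (rho = 0.64) and 0.60 for Cd79b and Ms4a1 (rho = 0.64), with exact permutation p for r of 0.506, 0.182 and 0.161 (adjusted p = 0.833, 0.363 and 0.353) and for rho of 0.444, 0.139 and 0.139 (adjusted p = 0.819, 0.556 and 0.556). Without the 2 libraries farthest from the median of the first gene, r was 0.49, 0.94 and -0.0084 for these pairs.

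Of the 13600 genes with a mean of at least 1 CPM, the 10 most like Igkc over the 7 libraries included 4 of the immunoglobulin system. These were Igkv5-43 (r = 0.99), the joining segment Igkj1 (0.98), Jchain (0.97) and Igkv1-110 (0.95). Among the others were Ptgr1, Tctn3, Zfp141, Cyren and Ssh2, with r from 0.94 to 0.98. The 10 genes most like Cd79a were Car9, Samd1, Eed, Ints8, Stbd1, Skil, Jmjd6, Pdcd2l, Zfp426 and 1110019D14Rik, with r from 0.94 to 0.98, and no immunoglobulin gene was among them. With 7 libraries and this many genes, values of this size are a description of order only.

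The spread within groups separated the secreted set from the receptor genes. The residual SD of the fit, on the log2 scale, was 1.79 for Igha, 1.42 for Jchain, 1.30 for Igkc and 1.07 for Ighm, against a median of 0.246 over all genes. Igha was thereby at the percentile 99.7 of all 17537 genes, Jchain at 99.2, Igkc at 98.8 and Ighm at 97.9. Cd79a (0.581) and Mzb1 (0.504) were at the percentiles 88.2 and 84.0, and Ms4a1 (0.262) and Cd79b (0.236) near the middle, at 53.8 and 47.8. At low levels the added 0.5 CPM narrows this spread.

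**Figure D3:**
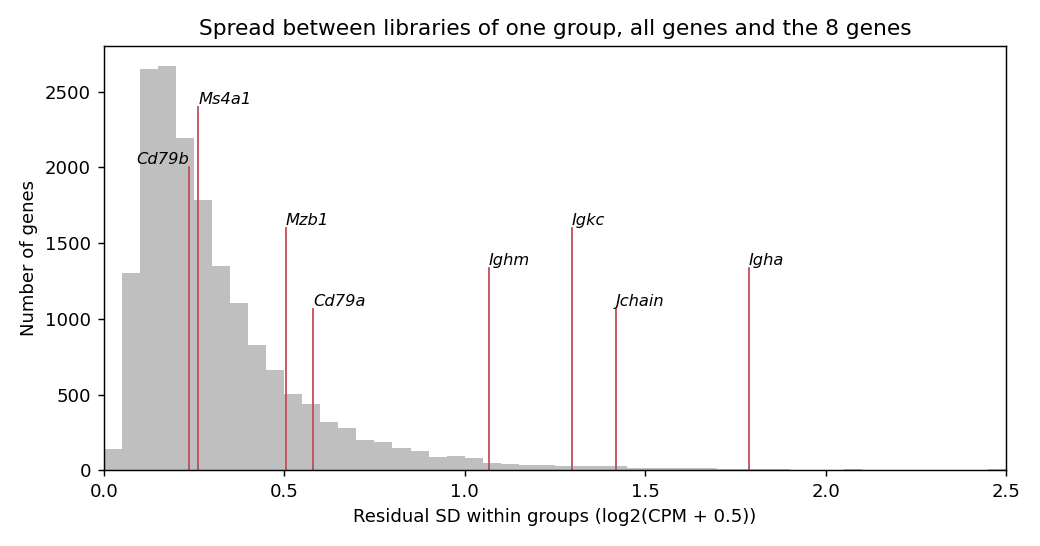
Distribution over 17537 genes of the residual SD within groups on the scale log2(CPM + 0.5) (horizontal axis, values above 2.5 counted in the last bar), with the number of genes on the vertical axis. Red lines mark the 8 genes, from Cd79b at 0.236 to Igha at 1.79.

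Against this spread, no difference between groups was detected for any of the 8 genes. In DM-22 versus C, limma called 0 of the 8 members at an adjusted p under 0.05 and 0.00% of all genes tested. At an unadjusted p under 0.05 it called 0 members and 4.46% of all genes, and voom, run on whole reads recovered from the values, also called 0 at either threshold. The log2 fold change of Igha was -1.28 (SE 1.27, limma adjusted p = 0.846), of Igkc -0.42 (SE 0.92, adjusted p = 0.930), of Jchain -0.74 (SE 1.01, adjusted p = 0.883) and of Ighm -0.74 (SE 0.77, adjusted p = 0.849). The signs of the first 3 turned when DM-22 replicate 1 was left out, giving 0.33 for Igha, 0.93 for Igkc and 0.57 for Jchain. Cd79b and Ms4a1 were the 2 members whose groups did not overlap, both higher in DM-22, while 20.1% of all genes did not overlap. Their log2 fold changes were 0.44 (SE 0.24, adjusted p = 0.831) and 0.45 (SE 0.23, adjusted p = 0.831). Cd79a and Mzb1 were at 0.09 and -0.03.

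In DM+SGLT2i versus C, limma again called 0 of the 8 members, beside 0.00% of all genes at the adjusted and 1.25% at the unadjusted threshold, where it also called 0 members. The voom test called 0 members at both. Igha had the greatest fitted difference, with a log2 fold change of -1.53 (SE 1.27, limma adjusted p = 0.9998), and it was -0.56 without C replicate 9. Ighm was at 0.49 (SE 0.77) and at -0.41 once DM+SGLT2i replicate 1 was left out. Cd79a, at -0.78 (SE 0.44, adjusted p = 0.9998), was the 1 member without overlap, and 13.0% of all genes had none.

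In DM+SGLT2i versus DM-22, the comparison between treated and untreated diabetes, 0 of 8 members and 0.00% of all genes passed limma's adjusted threshold. At an unadjusted p under 0.05, 1 member (Ms4a1) and 4.01% of all genes passed, and 1 member passed in voom. This count was 0 without DM-22 replicate 2 and 0 without DM+SGLT2i replicate 1, and it was 2 without C replicate 2, C replicate 9 or DM+SGLT2i replicate 2. Ms4a1 had a log2 fold change of -0.78 (SE 0.25, limma adjusted p = 0.892, lower in 2 of 2 treated libraries). The groups did not overlap for 4 members, Ighm higher and Cd79a, Cd79b and Ms4a1 lower in DM+SGLT2i, beside 40.8% of all genes. Cd79a differed by -0.87 (SE 0.49), Cd79b by -0.61 (SE 0.26) and Ighm by 1.23 (SE 0.84), each with an adjusted p of 0.892. Without DM+SGLT2i replicate 1, Ighm differed by 0.34 and Cd79b by -0.37. Igkc, Igha and Jchain differed by -0.04, -0.26 and -0.13, with SE of 1.01 to 1.39, and Mzb1 by 0.00.

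The 4 diabetic libraries as 1 set against C gave 0 called members, with 0.00% of all genes called at the adjusted p and 2.27% at the unadjusted p, again with 0 members. Voom called 0 at both. The groups overlapped for each of the 8 members, while 3.09% of all genes had no overlap. The log2 fold change of Igha was -1.40 (SE 1.06, limma adjusted p = 0.991). The 4 comparisons share libraries. The median log2 fold change of the 8 genes was -0.23 in DM-22 versus C, -0.40 in DM+SGLT2i versus C and -0.19 in DM+SGLT2i versus DM-22, beside medians over all genes of -0.02, -0.01 and 0.03.

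**Figure D4:**
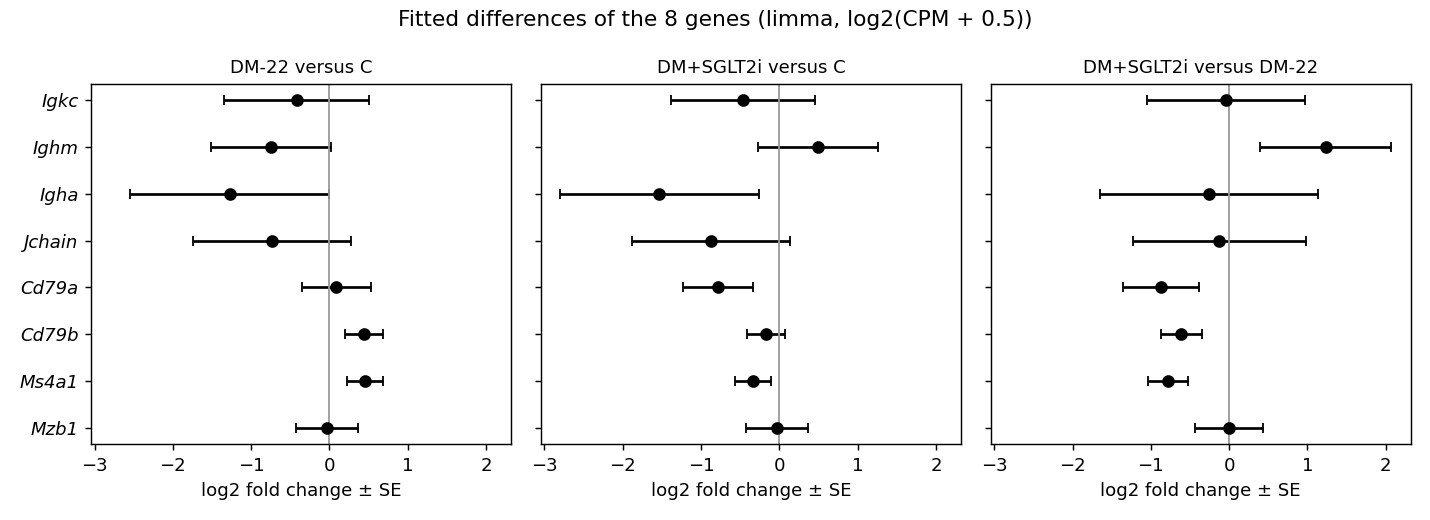
Log2 fold change on the scale log2(CPM + 0.5) with its SE (horizontal axes) for the 8 genes in 3 comparisons. Igha has the widest bars, with an SE of 1.27 to 1.39, and the points of Cd79a, Cd79b and Ms4a1 lie between -0.61 and -0.87 in DM+SGLT2i versus DM-22.

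Of 10 other immunoglobulin constant genes searched, 6 were listed, the 4 IgG heavy chains, Ighd and Iglc2. Ighg1 was 3.21, 4.25 and 1.004 CPM in C, 2.38 and 2.20 CPM in DM-22, and 20.9 and 10.6 CPM in DM+SGLT2i. Ighg2b was 6.89, 1.66 and 4.02 CPM in C, 0.864 and 1.25 CPM in DM-22, and 10.0 and 8.85 CPM in DM+SGLT2i. Both treated libraries were above every other library for these genes. Ighg3 was 1.01, 0.0421 and 0.107 CPM in C, 0.900 and 0.116 CPM in DM-22, and 6.18 and 2.46 CPM in DM+SGLT2i, again with both treated libraries on top. Ighg2c was 8.81, 1.26 and 3.25 CPM in C, 1.58 and 1.43 CPM in DM-22, and 9.43 and 8.69 CPM in DM+SGLT2i, where C replicate 2 lay between the treated libraries.

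None of the 6 passed the adjusted threshold in any comparison. The 4 IgG genes passed the unadjusted one in DM+SGLT2i versus DM-22, all higher, where 4.01% of all genes passed, and their groups did not overlap, as was so for 40.8% of all genes. The log2 fold changes were 2.68 for Ighg2b (SE 0.55), 2.46 for Ighg1 (SE 0.59), 2.26 for Ighg3 (SE 0.66) and 2.25 for Ighg2c (SE 0.69), each with a limma adjusted p of 0.892 and each higher in 2 of 2 treated libraries. The list's median was 2.26, against 0.03 over all genes. In DM+SGLT2i versus C, Ighg1 (2.37), Ighg3 (2.49) and Ighg2b (1.25) passed the unadjusted threshold, beside 1.25% of all genes, with a limma adjusted p of 0.9998 for each. The groups of these 3 genes did not overlap, nor did those of 13.0% of all genes. In DM-22 versus C the unadjusted threshold was passed by Ighg2b, at -1.43 (SE 0.50, limma adjusted p = 0.831), beside 4.46% of all genes. Ighg2b and Ighg2c are close relatives, and reads may be shared between IgG genes. Ighd was 0.476, 1.28 and 1.20 CPM in C, 1.17 and 0.763 CPM in DM-22, and 0.626 and 0.488 CPM in DM+SGLT2i, lower in both treated than in both DM-22 libraries (log2 fold change -0.46, SE 0.34, limma adjusted p = 0.892). Iglc2 was 0.531 to 3.06 CPM in C, 0.198 and 3.40 CPM in DM-22, and 0.450 and 0.723 CPM in DM+SGLT2i, with overlapping groups.

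B cell surface and signaling genes were listed for 19 of 19 searched, and 0 passed the adjusted threshold in any comparison. The first 5 by mean level were the adaptor Blnk (16.1 to 37.8 CPM over the libraries), Cd72 (3.03 to 12.3 CPM), Cd180 (2.31 to 8.59 CPM), Ly6d (0.506 to 20.4 CPM) and Cd83 (1.30 to 4.62 CPM). These are not specific to B cells. At an unadjusted p under 0.05, 3 were lower in DM-22 than in C (Cd22, Cd40 and Cd83, where 4.46% of all genes passed), 0 passed in DM+SGLT2i versus C (1.25% of all genes), and 1 was lower in DM+SGLT2i than in DM-22 (Fcmr, 4.01% of all genes). Ly6d, which urothelium also expresses, reached 20.4 CPM in DM+SGLT2i replicate 1 and at most 2.44 CPM elsewhere.

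Of 8 B cell transcription factors, all listed, 0 passed either threshold in any comparison. By level they were led by Ebf1, Bach2, Pou2f2, Ikzf3 and Pou2af1, of which Ebf1 (7.31 to 12.3 CPM) is also expressed outside the lineage. Pax5, the factor that maintains B cell identity, was 0.0181 to 0.232 CPM. Of 14 plasma cell genes, 0 passed the adjusted threshold, and 1 passed the unadjusted one in DM+SGLT2i versus DM-22, beside 4.01% of all genes. That was Irf4, a factor needed for plasma cell formation, at 5.23 and 1.25 CPM in DM+SGLT2i against 0.756 and 0.740 CPM in DM-22 (log2 fold change 1.34, SE 0.52, limma adjusted p = 0.892). In C it was 1.47, 1.18 and 1.71 CPM, a range that includes DM+SGLT2i replicate 2. The abundant genes of this list, Xbp1, Txndc5, Edem1, Sdc1 and Creld2, serve secretion or adhesion in many cells, and Xbp1 was 99.3 to 183 CPM. Tnfrsf17, the survival receptor of plasma cells, was 0.0391 to 0.150 CPM.

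Among factors that attract or sustain these cells, 10 of 14 were listed and 0 passed either threshold. The first 5 were Cxcl12, Ccl28, Ccl21a, Ccl19 and Tnfsf13b. Ccl28, an attractant of IgA-secreting cells, was 6.87, 9.31 and 52.4 CPM in C, 23.8 and 26.9 CPM in DM-22, and 9.75 and 15.6 CPM in DM+SGLT2i. Its highest library was C replicate 9, as for Igha, but DM-22 replicate 1, the lowest for Igha, was the third highest for Ccl28. Receptors and transporters of immunoglobulin were listed for 9 of 9, with 0 past either threshold. Without C replicate 2, 5 were higher at the unadjusted threshold in DM-22 versus C, where 3904 of all 17537 genes passed it. In DM+SGLT2i versus C, 6 were then higher and 1 lower, where 2926 of all 17537 genes passed. The receptors and transporters were led by Pigr, Fcgrt, Lgals3, Fcgr2b and Fcamr. Pigr, which carries polymeric IgA across epithelia, was 656, 307 and 262 CPM in C, 307 and 195 CPM in DM-22, and 491 and 504 CPM in DM+SGLT2i. The DM+SGLT2i libraries were above both DM-22 libraries (log2 fold change 1.02, SE 0.45, limma adjusted p = 0.892). In this comparison the groups did not overlap for 40.8% of all genes. Fcamr, the receptor for IgA and IgM, was 1.39, 26.3 and 27.1 CPM in C, 5.89 and 26.2 CPM in DM-22, and 9.08 and 5.06 CPM in DM+SGLT2i. Its 3 high libraries were the 3 in which Igha was highest.

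Markers of tissue content differed between libraries too. Slc34a1, chosen here after its values were seen, was 2841, 8363 and 8096 CPM in C, 2937 and 9452 CPM in DM-22, and 5565 and 5233 CPM in DM+SGLT2i. C replicates 8 and 9 and DM-22 replicate 2 were the 3 highest libraries for both Slc34a1 and Igha, though not for Igkc and Jchain, which were low in C replicate 8. Lrp2, also of the proximal tubule, was 1258, 3597 and 2293 CPM in C, 1437 and 1838 CPM in DM-22, and 1950 and 1799 CPM in DM+SGLT2i, and did not share this order, since DM-22 replicate 2 lay below DM+SGLT2i replicate 1. Slc12a1, of the thick ascending limb, was highest in DM-22 replicate 1 at 5580 CPM, where Igha, Igkc and Jchain were lowest. Urothelial genes (Upk1a, Upk1b, Krt5, Upk3b, Upk3a, Upk2 and Krt20, a list chosen after the values were seen) summed to 72.04, 6.44 and 4.98 CPM in C, 29.0 and 2.54 CPM in DM-22, and 158 and 9.68 CPM in DM+SGLT2i. DM+SGLT2i replicate 1 and C replicate 2, the 2 libraries with high Ighm, were the highest here, and 0 of the 7 genes passed either threshold in any comparison. The part of tissue content in the differences of Igha and Ighm was not tested.

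**Figure D5:**
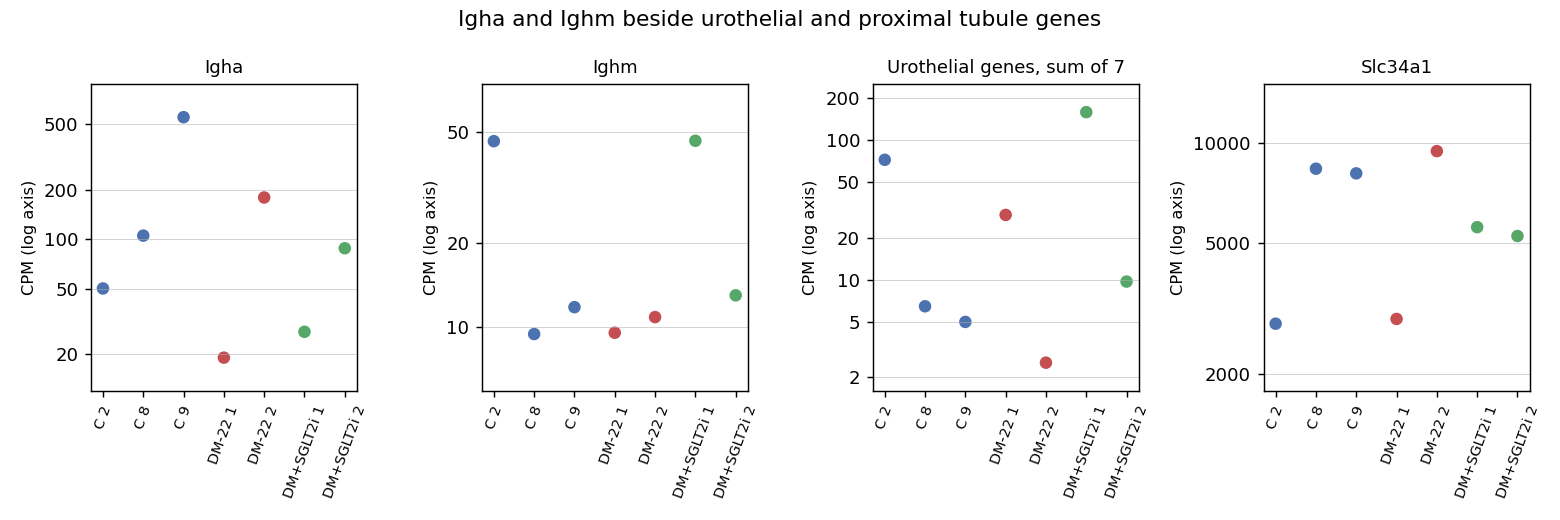
Igha, Ighm, the sum of 7 urothelial genes and Slc34a1 in CPM (log axes) in each of the 7 libraries, colored by group (blue C, red DM-22, green DM+SGLT2i). The 2 libraries with Ighm near 46 CPM have the highest urothelial sums, 72.04 and 158 CPM, and the 3 libraries with Igha above 100 CPM are those with Slc34a1 at 8096 CPM or more.

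Other cell types were read from lists of their genes. T cell genes (18 of 18 listed, led by Thy1, Trac, Trbc2, Cd4 and Lck) summed to 14.4 to 38.0 CPM in C, 20.7 to 28.5 CPM in DM-22 and 27.2 to 30.3 CPM in DM+SGLT2i. The highest sum was that of C replicate 2, and Trac alone gave 12.4 CPM of the sum in DM-22 replicate 1. In DM+SGLT2i versus DM-22, 17 of the 18 T cell genes had a positive log2 fold change, with a median of 0.31 against 0.03 over all genes. Of these T cell genes, 2 were at an unadjusted p under 0.05 in limma, beside 4.01% of all genes. Such a majority was not particular to T cells. Positive were also 13 of 13 macrophage genes (median 0.40) and 8 of 9 MHC class II genes (median 0.34). For NK cells it was 6 of 9 genes, for neutrophils 1 of 5 and for plasmacytoid dendritic cells 0 of 4. NK cell genes (9 of 9, led by Nkg7, Prf1, Eomes, Klrb1c and Klrd1) summed to 2.32 to 5.17 CPM over all libraries. Macrophage genes (13 of 13, led by Csf1r, Laptm5, Lyz2, C1qa and C1qb) summed to 200 to 820 CPM in C, 273 to 417 CPM in DM-22 and 430 to 479 CPM in DM+SGLT2i. MHC class II genes (9 of 9, led by Cd74, H2-Aa, H2-Ab1, H2-Eb1 and H2-DMb1) were also highest in C replicate 2, with a sum of 1838 CPM against 491 to 1105 CPM in the others. Genes of plasmacytoid dendritic cells (4 of 5, Pacsin1, Cox6a2, Siglech and Ccr9) summed to 2.29 to 4.02 CPM and those of neutrophils (5 of 8, Csf3r, S100a9, S100a8, Retnlg and Cxcr2) to 2.23 to 6.19 CPM. Of the red blood cell list only Alas2 was listed (4.42 to 32.8 CPM), and lymph node stroma genes (5 of 7, Ccl21a, Ccl19, Cr2, Cxcl13 and Tnfsf11) summed to 6.38 to 24.6 CPM. In none of these lists, nor among the 6 fat cell and 8 kidney genes, did a gene pass the adjusted threshold in any comparison with all 3 controls. Without C replicate 2, Laptm5, C1qa and the immunoglobulin E binding Lgals3 passed it in DM+SGLT2i versus C, where 17 of 17537 genes did. The library left out was the highest of all for each of these genes, at 133 CPM for Laptm5, 93.9 CPM for C1qa and 126 CPM for Lgals3.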

How the data were processed

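Total RNA of mouse kidney was sequenced after selection of messenger RNA and a directional library preparation, per the labels. The submitters' processing notes name bcl2fastq, FastQC, Trim Galore, STAR and edgeR, with build mm10 and no versions. The read counter, its treatment of strand and of reads with several matches, and the filter on genes are not given in the sources used here. The deposited table of 17537 genes and 7 libraries is on a log2 scale. To make it, the authors scaled counts by TMM library sizes and, before taking logarithms, added about 2 reads to each count. All 7 columns were used and 0 were left out.

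CPM were recovered by removing the constant, 0.0395 CPM. Divided by the value of 1 read, 100% of the values up to 1000 reads were whole within 0.1 reads. Groups and replicate numbers came from the sample titles. No gene was filtered, so that all 8 members were tested. limma 3.58.1 (R 4.3.3, trend) was fitted to log2(CPM + 0.5) with 3 group means and Benjamini-Hochberg adjustment over all genes, two-sided, at a threshold of 0.05. Fold changes are on that scale, which understates changes of low genes. Voom on recovered reads, other added constants (0.1 and 2 CPM), a filter at 1 CPM in 2 libraries, unscaled libraries, fits on the compared groups alone, a replicate block and leaving out each library were alternatives. The steps were tested on simulated data. In the counts simulated for limma every gene had the same spread setting, unlike the immunoglobulin genes here. That test therefore does not cover how well changes of these genes are detected. Correlations used exact permutation over the 7 libraries. Shares have Wilson and low levels exact Poisson intervals at 95%. Tables and figures were made with Python 3.11.15.

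The members and lists were chosen with earlier results of these data known. Named were all members, the 5 most abundant genes of each list and of each kind of variable segment with the leading segment of each library, any gene past the adjusted threshold, and the 10 genes most like Igkc and Cd79a. Genes at an unadjusted p under 0.05, defining genes of a list (Pax5, Tnfrsf17) and Slc34a1, Slc12a1 and the urothelial genes were named after their values were seen. Some genes that this rule names are not reported here.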

Additional observations from a re-analysis of the deposited data

Results flagged for a closer look

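Over the 4 diabetic libraries, 1 value of the 8 genes lay far from the rest. Ighm was 46.4 CPM in DM+SGLT2i replicate 1 and 9.58 to 13.0 CPM in the other 3, a gap of 0.906 of the whole range. By chance about 1 in 20 groups is marked in this way, and 8 genes were examined. The groups of 2 or 3 libraries were not checked in this way, so values that stand apart within them are not marked here.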

How the results depend on the processing

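The count of members called stayed at 0 under every alternative run, the replicate block being run for DM+SGLT2i versus DM-22 alone and the fit on the compared groups for all comparisons but all diabetic versus C, and 0 of 17537 genes were called except without C replicate 2, where limma called 2 genes in DM-22 versus C, 17 in DM+SGLT2i versus C and 5 in all diabetic versus C. The filter at 1 CPM in 2 libraries removed Ms4a1 and left 13976 genes. Of 32 member differences 19 had the opposite sign under some alternative, nearly always one that left out a library. For these, the lowest and highest log2 fold changes with 1 library left out follow. In DM-22 versus C they ran from -0.28 to 0.50 for Cd79a, -1.77 to 0.93 for Igkc, -2.05 to 0.57 for Jchain, -0.28 to 0.31 for Mzb1 and -2.88 to 0.33 for Igha. In DM+SGLT2i versus C they ran from -0.95 to 0.22 for Igkc, -0.34 to 0.31 for Mzb1, -0.41 to 1.39 for Ighm and -0.41 to 0.072 for Cd79b. In DM+SGLT2i versus DM-22 they ran from -0.30 to 0.31 for Mzb1, -1.39 to 1.31 for Igkc, -1.86 to 1.35 for Igha and -1.44 to 1.18 for Jchain. In all diabetic versus C they ran from -0.57 to 0.57 for Ighm, -0.094 to 0.24 for Ms4a1, -1.12 to 0.24 for Igkc, -1.46 to 0.019 for Jchain, -0.71 to 0.066 for Cd79a and -0.24 to 0.31 for Mzb1. With C replicate 2 and DM+SGLT2i replicate 1 both left out (chosen after seeing the data), the sign turned for Cd79a in DM-22 versus C (-0.28), for Cd79b in DM+SGLT2i versus C (0.12), for Igkc (0.22), Igha (0.58), Jchain (0.41) and Mzb1 (-0.30) in DM+SGLT2i versus DM-22, and for Ighm (0.12) and Ms4a1 (-0.019) in all diabetic versus C. Without TMM scaling Igkc turned to 0.066 in DM+SGLT2i versus DM-22. The cause was not tested. DM-22 and DM+SGLT2i share the replicate numbers 1 and 2, but deviations of the same-numbered libraries from their group means had r = -0.037, and the numbers were not taken to pair them. A replicate block called 0 members and 0 genes, with 2 members at an unadjusted p under 0.05 in place of 1. That count of 1 was also 2 with a constant of 2 CPM, with only the compared groups, and without C replicate 2, C replicate 9 or DM+SGLT2i replicate 2. It was 0 under the filter, without DM-22 replicate 2, without DM+SGLT2i replicate 1 and with C replicate 2 and DM+SGLT2i replicate 1 both left out. In DM+SGLT2i versus C it was 1 in place of 0 without C replicate 2, and in DM-22 versus C 1 in place of 0 without C replicate 8. Depth limits Ms4a1, Cd79a, Cd79b and Mzb1, which had 8 to 119 reads a library.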
